A study of Saccharomyces cerevisiae with 12 samples.

Results

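IRC9 (YJL142C) and YAK1 (YJL141C) are neighbouring genes on chromosome X of Saccharomyces cerevisiae, and both were read on every array of a comparison of 2 yeast strains. They are 2 of the 6214 genes on the arrays, each with 1 probe. They were taken by systematic name. IRC9 was chosen by its measured log2 ratios, whose difference between the strains is among the largest in the series, and YAK1 because its reading frame overlaps that of IRC9. The IRC9 difference is therefore given as a description, with no test. YAK1 and the changes over time were tested in a fit of all genes, also with earlier results of these data known.

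The arrays held total RNA of 2 strains that fermented a synthetic agave must at 28 ºC. The 4 groups were ITD00185 at 48 h, T73 at 48 h, ITD00185 at 96 h and T73 at 96 h, with 3 biological replicates each by the labels. T73 is known as a wine yeast, and the series title leaves ITD00185 to be the strain from agave. Each array set 1 strain sample, in Cy5, against a sample mix of the same time, in Cy3, and gave 1 log2 ratio per probe. A positive ratio means more signal from the strain than from the mix if the strain is the numerator, as the order of channels makes likely without any source stating it, and every direction below rests on that. Neither the makeup of the mix nor the strains' own sequences at these genes are given, and RNA level cannot be told apart from how well a strain's sequence binds a probe.

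Yak1 is a protein kinase of the DYRK family that acts in opposition to protein kinase A, the kinase by which glucose promotes growth. When glucose runs out, Yak1 gathers in the nucleus, and cells without protein kinase A can grow once YAK1 is lost. Among the proteins it is known to phosphorylate are the stress transcription factors Msn2 and Hsf1, the mRNA deadenylase subunit Pop2 and the ribosomal gene corepressor Crf1. IRC9 is named for increased recombination centres, from a screen of deletion strains for spontaneous foci of the repair protein Rad52. In the RefSeq gene table of strain S288C both genes lie on the Crick strand. YAK1 is the 5′ partner, most of the IRC9 frame lies within the 3′ end of YAK1, and the rest runs on past it. The sources used here do not place the probes within their genes, so whether either lies in the shared stretch is unknown.

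IRC9 stood far above the mix in ITD00185 and below it in T73, at both times. At 48 h its log2 ratio was 4.25, 4.45 and 4.67 on the ITD00185 arrays, against -1.93, -1.60 and -1.95 on the T73 arrays. At 96 h it was 4.34, 5.33 and 4.47 in ITD00185, against -2.28, -2.27 and -2.08 in T73. The strains did not overlap at either time, and the lowest ITD00185 array lay more than 5 log2 units above the highest T73 array. The replicates lay close together, with an SD over arrays within groups of 0.31, below that of 78.8% of the 5474 genes tested.

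YAK1 showed the same order of the strains with a smaller gap. At 48 h its log2 ratio was 0.44, 1.30 and 1.20 in ITD00185, against -0.761, -0.044 and -1.003 in T73. At 96 h it was 1.42, 3.51 and 2.60 in ITD00185, against -1.58, -1.38 and -1.25 in T73. Again no ITD00185 array overlapped a T73 array at either time. The ITD00185 arrays of 96 h were the most scattered, and their replicate 1 was close to the highest values of 48 h. The pooled SD of YAK1 was 0.63, against a median of 0.45 over all genes.

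**Figure D1:**
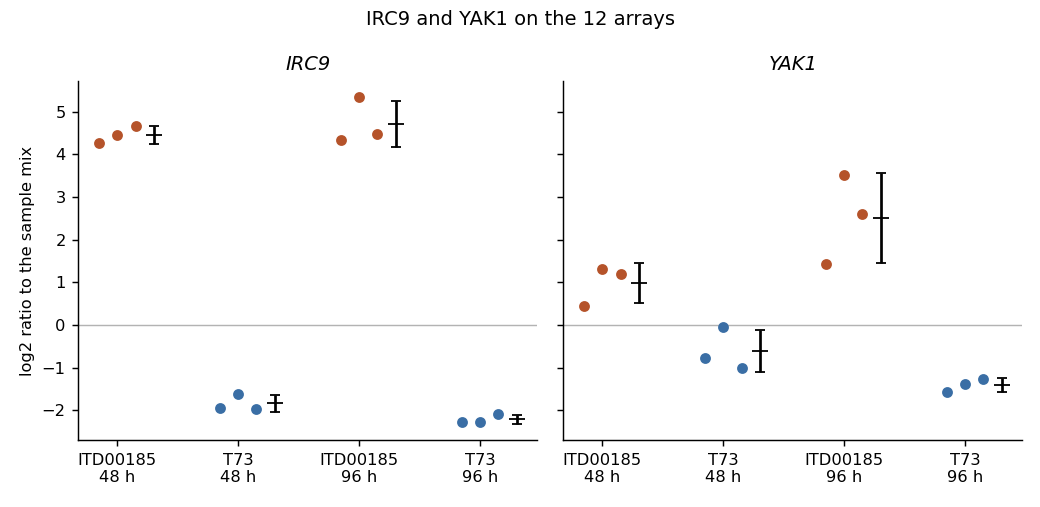
Log2 ratio to the sample mix (vertical axis) of IRC9 and YAK1 on each array (points, replicates 1 to 3 from left to right), by strain and time, with the mean and SD of the 3 arrays as black bars. Both genes lie above 0 on all ITD00185 arrays and below 0 on all T73 arrays, with IRC9 at 4.25 or more in ITD00185 and YAK1 between 0.44 and 3.51.

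Both genes were above 0 on all 6 ITD00185 arrays and below 0 on all 6 T73 arrays. This held for 46 of the 4807 genes read on all arrays (0.957%), a pattern noticed after the values were seen. All ITD00185 arrays lay above all T73 arrays for 14.7% of genes at 48 h and 27.7% at 96 h, so that the lack of overlap at 1 time alone was common.

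IRC9 averaged 4.46 ± 0.21 in ITD00185 and -1.83 ± 0.20 in T73 at 48 h, and 4.72 ± 0.54 in ITD00185 and -2.21 ± 0.11 in T73 at 96 h (SD, n = 3 each). The difference, ITD00185 minus T73, was 6.29 ± 0.28 at 48 h and 6.93 ± 0.28 at 96 h (standard error of the fit), or 78.1-fold and 122-fold. Among 5474 genes these were the 3rd highest difference at 48 h and the 2nd highest at 96 h. With each single array left out the value ran from 6.18 to 6.40 at 48 h and from 6.62 to 7.11 at 96 h.

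YAK1 averaged 0.98 ± 0.47 in ITD00185 and -0.60 ± 0.50 in T73 at 48 h, and 2.51 ± 1.05 in ITD00185 and -1.40 ± 0.16 in T73 at 96 h (SD, n = 3 each). At 48 h YAK1 was higher in ITD00185 by 1.58 ± 0.47 on the log2 scale, or 3.00-fold (95% interval 0.54 to 2.62, limma adjusted p = 0.0224). At 96 h it was higher by 3.91 ± 0.47, or 15.1-fold (95% interval 2.87 to 4.95, limma adjusted p = 0.000608). Of all genes, 12.9% were called higher in ITD00185 at 48 h and 11.98% at 96 h. YAK1 was the 299th highest difference at 48 h and the 22nd at 96 h.

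The call of YAK1 at 96 h held with each array left out, at 3.41 to 4.46. The call at 48 h was lost without ITD00185 48 h replicate 3 (1.48, limma adjusted p = 0.0711), T73 48 h replicate 1 (1.504, limma adjusted p = 0.0587) or T73 48 h replicate 3 (1.38, limma adjusted p = 0.0592). The median gene stood at -0.32 at 48 h and moved by about that amount when each array was centred on its median, which put YAK1 at 1.88 and IRC9 at 6.58 at that time. Across genes ITD00185 48 h replicate 2 correlated at 0.42 and 0.51 with the other arrays of its group and at 0.82 to 0.86 with the ITD00185 arrays of 96 h. Without it YAK1 differed by 1.42 at 48 h (limma adjusted p = 0.0455) and IRC9 by 6.29.

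**Figure D2:**
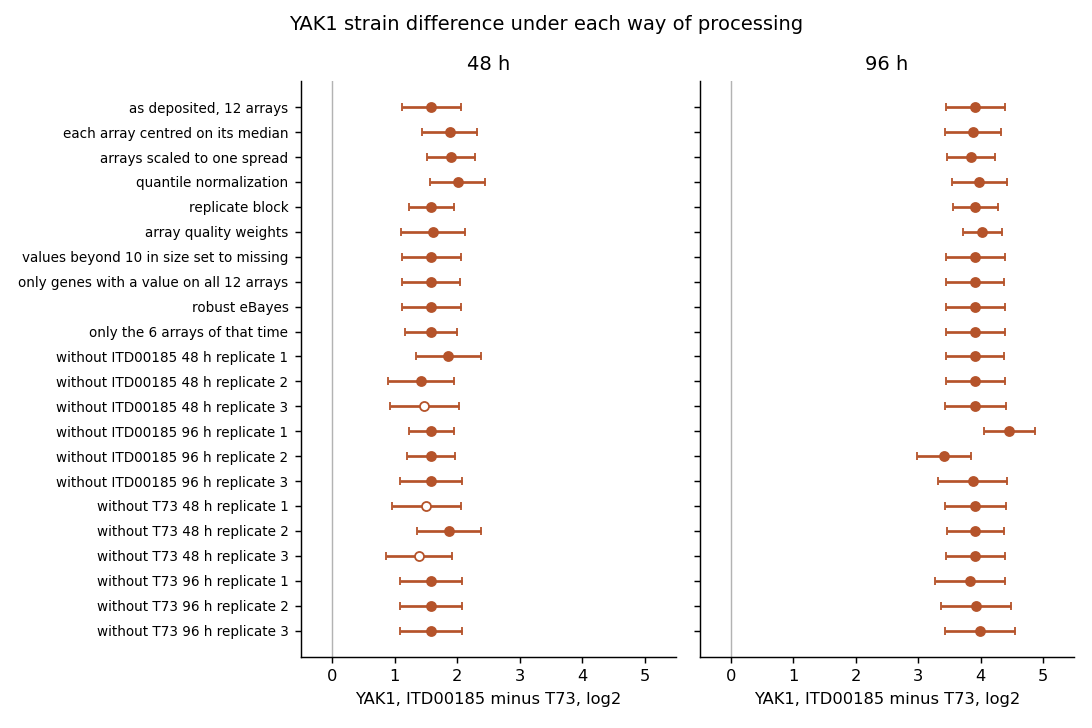
YAK1 difference between the strains (ITD00185 minus T73, log2, horizontal axis) with its standard error at 48 h and 96 h, under each processing alternative and with each array left out. Filled points passed an adjusted p of 0.05 over all genes tested, and open points, 3 of them at 48 h, did not.

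The next comparison asked whether the strain difference changed between 48 h and 96 h. For YAK1 it was larger at 96 h by 2.33 ± 0.67 (95% interval 0.86 to 3.80, limma adjusted p = 0.0217). The difference grew by this test for 24.4% of all genes and fell for 13.6%. The call was lost without ITD00185 48 h replicate 1 (2.06, limma adjusted p = 0.0547) or T73 96 h replicate 1 (2.24, limma adjusted p = 0.0515). For IRC9 the change was 0.64 ± 0.40 (95% interval -0.24 to 1.51, limma adjusted p = 0.217), which did not pass, and its sign turned, to -0.47, once the arrays were scaled to one spread.

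Within a strain, 96 h and 48 h were each read against a mix labelled with their own time, so a change is one of the ratio to the mix. In ITD00185 the YAK1 ratio was 2.51 at 96 h and 0.98 at 48 h, a change of 1.53 ± 0.47 (95% interval 0.49 to 2.57) that did not pass after adjustment over all genes (limma adjusted p = 0.0706). All 3 arrays of 96 h lay above those of 48 h, as for 13.1% of genes, and 3.82% of genes were called higher. The change was called without ITD00185 48 h replicate 2 (1.69, limma adjusted p = 0.0303) and without ITD00185 96 h replicate 1 (2.08, limma adjusted p = 0.0456), and also with array weights (1.59) and with the replicate number as a block (adjusted p = 0.0331). In T73 the YAK1 change was -0.80 ± 0.47 (limma adjusted p = 0.211), with all 3 arrays of 96 h below those of 48 h, as for 33.6% of genes, and 23.9% of genes were called lower.

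IRC9 changed by 0.26 ± 0.28 in ITD00185 (95% interval -0.36 to 0.88, limma adjusted p = 0.53) and by -0.38 ± 0.28 in T73 (95% interval -0.999 to 0.24, limma adjusted p = 0.316), and neither passed. The ITD00185 value turned negative when the arrays were scaled to one spread (-1.50) or quantile normalized (-0.66), and without ITD00185 96 h replicate 2 (-0.05). In order of the mean ratio, IRC9 ran ITD00185 96 h, ITD00185 48 h, T73 48 h and T73 96 h, and YAK1 ran in the same order. Within a strain the neighbours in that order missed the adjusted threshold for both genes, with the ITD00185 arrays of YAK1 apart at the 2 times and the ITD00185 arrays of IRC9 overlapping.

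The 2 genes also ranked the arrays of a group alike. In 3 of the 4 groups the 3 arrays stood in the same order for IRC9 and YAK1. In ITD00185 at 96 h, for example, replicate 2 was highest and replicate 1 lowest for both. The exception was ITD00185 at 48 h, where replicate 3 was highest for IRC9 and replicate 2 for YAK1. In T73 the IRC9 order rested on near ties, -1.931 and -1.954 at 48 h and -2.278 and -2.267 at 96 h. As many groups in the order of IRC9 were found for 129 of the other 4806 genes read on all arrays (2.68%), and the level and spread of whole arrays, which also differ, are part of such an order.

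The size of the IRC9 profile set it apart from YAK1. Likeness was measured as the root mean square difference over the 12 arrays, after each gene's mean over the arrays was subtracted. YAK1 lay 2.01 log2 units from IRC9 and was its 18th nearest of 4806 genes, while IRC9 was only the 3873rd nearest to YAK1. Nearest to IRC9 were SPG1, needed for survival in stationary phase (1.28), ECM8 (1.33), AIF1, a mitochondrial cell death effector (1.35), MST28, of the DUP240 membrane protein family (1.39), and the hydrophilin GRE1 (1.43). These distances are well over the array spread of IRC9, so no gene followed it closely in size.

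Several genes lay much closer to YAK1. They were VPS70, named for vacuolar protein sorting (0.46), YSA1, a hydrolase of ADP-ribose (0.49), PDX3, which makes pyridoxal phosphate (0.56), MSA1, an activator of G1 transcription (0.63), and SED1, a structural cell wall glycoprotein (0.66). VPS70 differed between the strains by 1.48 at 48 h and 3.11 at 96 h, close in both to YAK1. MSA1 differed by 0.47 and 3.80.

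On either side of the pair the strain differences were smaller in size than that of IRC9 and mixed in sign. Of 10 neighbours, 5 on each side by gene order, 9 were tested. At 48 h 2 were higher and 2 lower in ITD00185, and at 96 h 3 were higher and 0 lower, where 12.9% and 26.7% of all genes were higher and lower at 48 h and 11.98% and 10.5% at 96 h. The lower count of 48 h was 1 without ITD00185 48 h replicate 1 or 3 or T73 48 h replicate 2, the higher count of 96 h was 1 without ITD00185 96 h replicate 3 or T73 96 h replicate 1 or 2, and the lower count of 96 h was 1 without ITD00185 48 h replicate 2. Over all alternatives 2 to 4 neighbours were higher and 0 to 3 lower at 48 h. At 96 h 1 to 5 neighbours were higher and 0 to 3 lower. Their medians were 0.60 at 48 h and 0.57 at 96 h, against -0.32 and -0.01 over all genes. YJL136W-A had too few values.

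TIM17, a pore subunit of the inner mitochondrial membrane translocase, is the next gene beyond IRC9, on the opposite strand. At 48 h its log2 ratio was 2.39, 1.61 and 2.44 in ITD00185, against -0.51, -0.86 and -0.95 in T73. At 96 h it was 0.75, 0.35 and 1.00 in ITD00185, against 0.27, -0.19 and -0.41 in T73. The strains stood well apart at 48 h and came close at 96 h. The difference was 2.92 ± 0.31 at 48 h (limma adjusted p = 0.000137) and 0.81 ± 0.31 at 96 h (limma adjusted p = 0.0762). It fell by 2.11 ± 0.43 between the times (limma adjusted p = 0.00604), opposite in sign to the change of YAK1, and that call held with each array left out.

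On the other side RPB4, a subunit of RNA polymerase II that lies next to YAK1, differed by 0.61 ± 0.45 at 48 h and 0.57 ± 0.45 at 96 h, and YUR1, a mannosyltransferase, by 0.60 ± 0.23 and 0.30 ± 0.23. None of these 4 values passed. TIF2, which encodes the translation factor eIF4A and has a near-identical copy elsewhere that a probe may not separate, differed by 0.72 ± 0.35 and -0.97 ± 0.35, neither past the test. GLG2, a glycogenin that starts glycogen chains, was higher in ITD00185 at 48 h by 2.02 ± 0.35 (limma adjusted p = 0.00187). At 96 h GLG2 was higher by 1.39 ± 0.35 (limma adjusted p = 0.0179), and that call was lost without ITD00185 96 h replicate 3 (1.23), T73 96 h replicate 1 (1.32) or T73 96 h replicate 2 (1.37).

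Beyond TIM17, ROQ1, which redirects the ubiquitin ligase Ubr1 under stress, was higher in ITD00185 at 96 h by 3.58 ± 0.78 (limma adjusted p = 0.00933) and lower at 48 h (-2.39 ± 0.78, limma adjusted p = 0.0315). The call at 48 h was lost without ITD00185 48 h replicate 1 (-1.70), ITD00185 48 h replicate 3 (-2.16) or T73 48 h replicate 2 (-1.64), and with arrays scaled (-0.52) or quantile normalized (-0.61). SFH5, a phosphatidylinositol transfer protein, was lower in ITD00185 at 48 h (-1.52 ± 0.40, limma adjusted p = 0.0127; 0.0768 with the 6 arrays of that time alone), and stood at -0.87 ± 0.40 at 96 h, not past the test. IDS2, named for signalling that depends on the meiotic kinase Ime2, stood at -0.73 ± 0.28 and -0.65 ± 0.28, not past it either. SMT1 stood at -1.55 ± 0.63 at 48 h, not past the test, and at 2.25 ± 0.63 at 96 h (limma adjusted p = 0.028), a call lost without ITD00185 96 h replicate 2 (1.83) or 3 (2.10) or any single T73 array of 96 h (2.21 to 2.33).

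**Figure D3:**
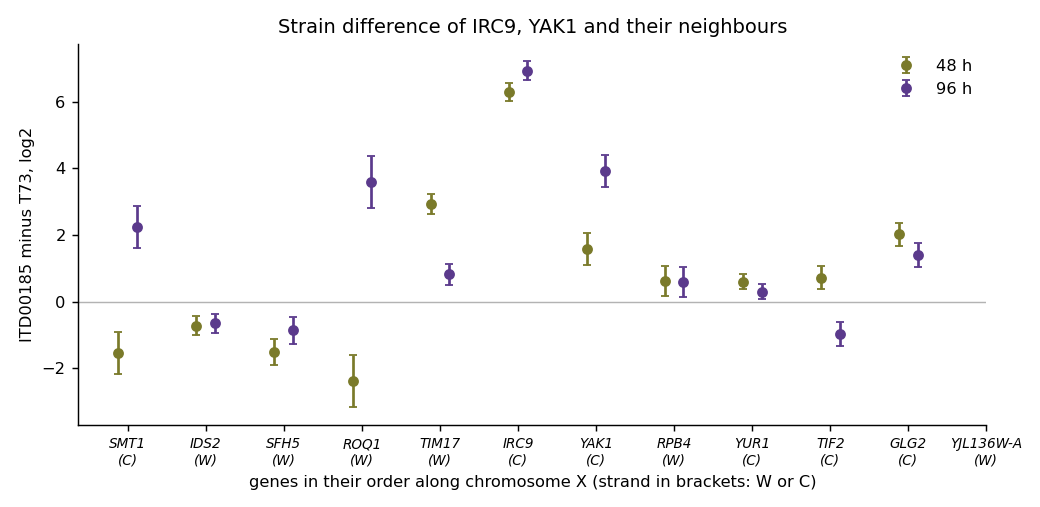
Strain difference (ITD00185 minus T73, log2, vertical axis) with its standard error at 48 h and 96 h for IRC9, YAK1 and 5 neighbours on each side, in gene order and not to scale along the chromosome. IRC9 (6.29 and 6.93) stands above all the others at both times, TIM17 is high at 48 h only (2.92 against 0.81), and YJL136W-A has no value.

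Other genes that overlap on 1 strand give a measure of how far partners usually part. Among tested genes the table held 15 such pairs, YAK1 and IRC9 included. The partners had the same sign of the strain difference in 9 pairs at 48 h and in 10 at 96 h. The difference between partners was a median of 0.83 log2 units at 48 h and 0.77 at 96 h, and for YAK1 and IRC9 it was 4.70 and 3.01. At 48 h 1 pair parted further than they did, and at 96 h none of the 15 did. Among 2201 neighbours on 1 strand without overlap the median was 1.20 at 48 h and 0.98 at 96 h, and 55 and 133 of those pairs parted further. Since IRC9 was chosen for its value, these counts only place the pair.

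**Figure D4:**
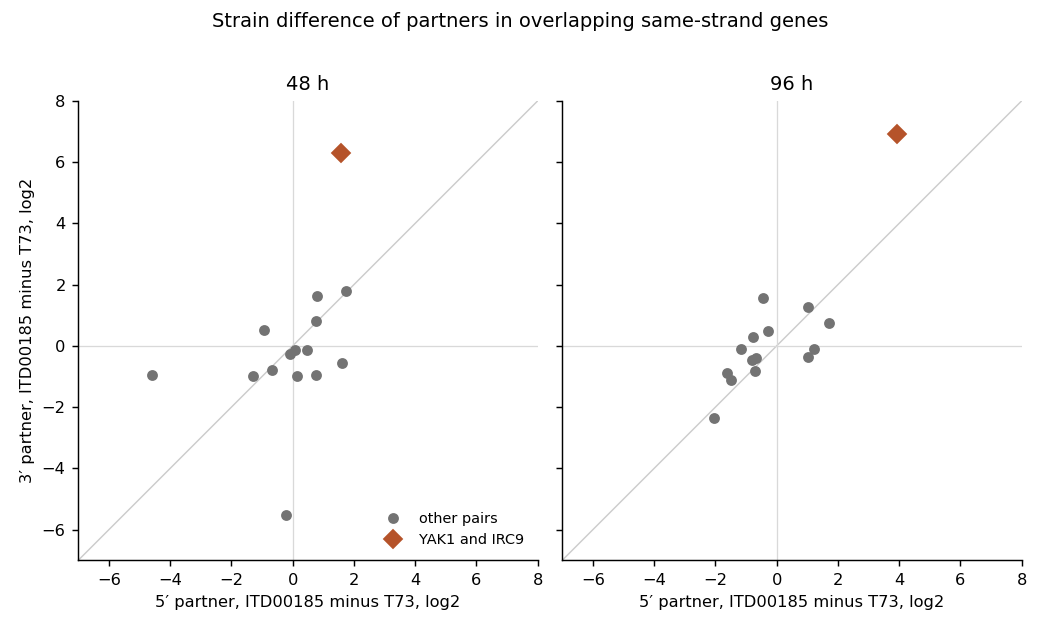
Strain difference (ITD00185 minus T73, log2) of the 3′ partner (vertical axis) against that of the 5′ partner (horizontal axis) in 15 pairs of genes that overlap on 1 strand, at 48 h and 96 h, with the line of equality. YAK1 and IRC9 (diamond) lie above the line by 4.70 at 48 h and 3.01 at 96 h, and are both positive each time.

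Genes that act with Yak1 were then read in the same fit, from lists chosen for its pathway. In the cascade of Ras and protein kinase A, which Yak1 opposes, 4 of 18 tested genes were higher in ITD00185 and 4 lower at 48 h, with a median of -0.37. At 96 h 5 were higher and 1 lower, with a median of 0.36. Over all genes 12.9% were higher and 26.7% lower at 48 h, and 11.98% and 10.5% at 96 h, with medians of -0.32 and -0.01. PDE2, the high-affinity cAMP phosphodiesterase, was lower in ITD00185 at both times (-2.06 ± 0.30 and -2.03 ± 0.30). SRV2, the adenylate cyclase associated protein, was higher at 96 h (2.48 ± 0.35), as was GPA2, the G protein alpha subunit of glucose sensing (2.93 ± 0.58). RAS2, a GTPase that activates adenylate cyclase, and SDC25, a Ras exchange factor, were lower at 48 h (-3.14 ± 0.63 and -2.74 ± 0.57). The RAS2 value shrank to -1.54 and missed the threshold with scaled arrays. GPA2 was also lower at 48 h (-1.95) and SDC25 also higher at 96 h (2.26), but the GPA2 call was lost without ITD00185 48 h replicate 1 (-1.37) or 3 (-1.72) or T73 48 h replicate 2 (-1.62). Counting every alternative, that GPA2 call was lost in 6 of 21. SDC25 had no value on ITD00185 96 h replicate 3. Its difference at 96 h was 2.62 without ITD00185 96 h replicate 1 and 1.91 without replicate 2, fits that left 1 array in that group. The SDC25 call was lost without any 1 T73 array of 96 h (2.12 to 2.39). The higher count was 2 at 48 h without ITD00185 48 h replicate 1 or T73 48 h replicate 1, and 3 at 96 h without ITD00185 96 h replicate 2 or any 1 T73 array of that time. Over all alternatives the higher count ran from 0 to 5 at 48 h and from 3 to 7 at 96 h.

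Of 9 substrates and partners of Yak1, 8 were tested, and 0 were higher and 3 lower in ITD00185 at 48 h, with a median of -0.22. At 96 h 3 were higher and 0 lower, with a median of 0.91. Over all genes 12.9% were higher and 26.7% lower at 48 h, and 11.98% and 10.5% at 96 h. The all-gene medians were -0.32 and -0.01. HSF1, the heat shock transcription factor, was lower at 48 h (-3.32 ± 0.74), a call that was lost when arrays were quantile normalized (-2.42, limma adjusted p = 0.0503) or the 6 arrays of that time were fitted alone (limma adjusted p = 0.0573). HSF1 had no value on T73 48 h replicate 3. Its log2 ratio at 48 h was -1.482, 1.492 and -0.847 in ITD00185, against 2.765 and 3.317 in T73. POP2 was higher at 96 h (1.20 ± 0.28), and so were BMH1 (2.74 ± 0.52) and BMH2 (2.88 ± 0.56), which encode 14-3-3 proteins and are close copies. BMH1 and BMH2 were also the other 2 lower genes of 48 h, at -1.79 ± 0.52 (limma adjusted p = 0.0201) and -2.08 ± 0.56 (limma adjusted p = 0.0143). Both of these calls of 48 h were lost without ITD00185 48 h replicate 1 (-1.52 and -1.57) or 3 (-1.74 and -1.83), and that of BMH1 also without T73 48 h replicate 1 (-1.74) or 2 (-1.30). MSN2 stood at 0.47 ± 0.26 and -0.05 ± 0.26 and MSN4 at -0.47 ± 0.37 and 0.91 ± 0.37, none of them past the test. The lower count at 48 h was 1 without ITD00185 48 h replicate 1 or 3 and when arrays were scaled, 0 when they were quantile normalized, and under each of these scalings 1 gene was higher.

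Of 24 genes driven by Msn2, Msn4 and Hsf1, 7 were higher and 5 lower in ITD00185 at 48 h, and 6 higher and 1 lower at 96 h. Their medians were 0.44 and 0.42, against -0.32 and -0.01 over all genes. The shares of all genes called were 12.9% higher and 26.7% lower at 48 h, and 11.98% and 10.5% at 96 h. The transketolase TKL2 (3.17 ± 0.64) and the hexokinase HXK1 (2.81 ± 0.48) were higher at 48 h. The chaperones SSA4, which has close relatives, and HSP42 were lower at that time (-4.93 ± 0.64 and -3.18 ± 0.45). At 96 h SSA4 stood at 1.40 ± 0.64, HSP42 at 1.28 ± 0.45 and TKL2 at 1.49 ± 0.64, none past the test. HXK1 was called higher at 96 h as well (2.04 ± 0.48, limma adjusted p = 0.013), a call lost in 1 of 12 fits with a single array left out. The higher count at 48 h was 11 without ITD00185 48 h replicate 2, 2 with scaled arrays and 4 after quantile normalization. The single lower gene of 96 h was not called without ITD00185 96 h replicate 2 or 3 or any 1 T73 array of 96 h. Over all alternatives 2 to 11 genes were higher and 2 to 7 lower at 48 h. At 96 h 4 to 11 were higher and 0 to 4 lower.

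Among nutrient kinases and regulators of quiescence, 13 of 14 were on the arrays and 12 were tested. At 48 h 2 were higher and 1 lower in ITD00185, and at 96 h 2 were higher and 0 lower. Medians were 0.30 and 0.11, against -0.32 and -0.01 over all genes. Of all genes, 12.9% were called higher and 26.7% lower at 48 h, and 11.98% and 10.5% at 96 h. The higher count of 48 h was 0 without ITD00185 48 h replicate 1, ITD00185 96 h replicate 2 or 3, T73 48 h replicate 1 or 2, or any 1 T73 array of 96 h, and that of 96 h was 0 without ITD00185 96 h replicate 2 or 3 or any 1 T73 array of 96 h, and 1 without ITD00185 96 h replicate 1. The lower count of 48 h was 4 without ITD00185 48 h replicate 2 or T73 48 h replicate 3 and 0 without any other single array, and that of 96 h was 1 without ITD00185 48 h replicate 1 or 2 or T73 48 h replicate 2 or 3. Over all alternatives the counts of 96 h ran from 0 to 4 higher and from 0 to 3 lower. The genes called higher at 48 h were MCK1, a kinase of the GSK-3 family (1.04), and KNS1, a kinase of the LAMMER family (0.79). PHO85, the cyclin-dependent kinase of phosphate signalling, was lower at 48 h (-0.96). PHO85 was called higher at 96 h (1.17 ± 0.35, limma adjusted p = 0.0367), and that call was lost in 6 of 12 fits with a single array left out. RIM15, a kinase needed for entry into quiescence, stood at -1.27 ± 0.51 and 1.86 ± 0.51, SNF1, the kinase of glucose derepression, at -1.56 ± 0.59 and 1.44 ± 0.59, and of these 4 values only that of RIM15 at 96 h passed (limma adjusted p = 0.0247). That call was lost without ITD00185 96 h replicate 2 (1.60) or 3 (1.76) or any single T73 array of 96 h (1.76 to 1.95).

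Of 18 other genes with an IRC name on the arrays 12 were tested and 6 had too few values. At 48 h 3 were higher and 2 lower in ITD00185, and at 96 h 1 was higher and 2 lower. Medians were -0.19 and -0.20, against -0.32 and -0.01 over all genes. The all-gene shares were 12.9% higher and 26.7% lower at 48 h, and 11.98% and 10.5% at 96 h. IRC20, a helicase and ubiquitin ligase, was lower at 48 h (-3.81 ± 0.47) and higher at 96 h (3.46 ± 0.47). IRC3, a mitochondrial DNA helicase, was lower at 48 h (-2.81 ± 0.49), and IRC24 was higher (2.46 ± 0.45). The lower count of 96 h was 0 without ITD00185 96 h replicate 1 or 3 or T73 96 h replicate 1 or 3. It was 1 without ITD00185 48 h replicate 1 or 3, ITD00185 96 h replicate 2, T73 48 h replicate 1 or T73 96 h replicate 2. Over all alternatives the higher count ran from 1 to 4 at 48 h and from 1 to 3 at 96 h.

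**Figure D5:**
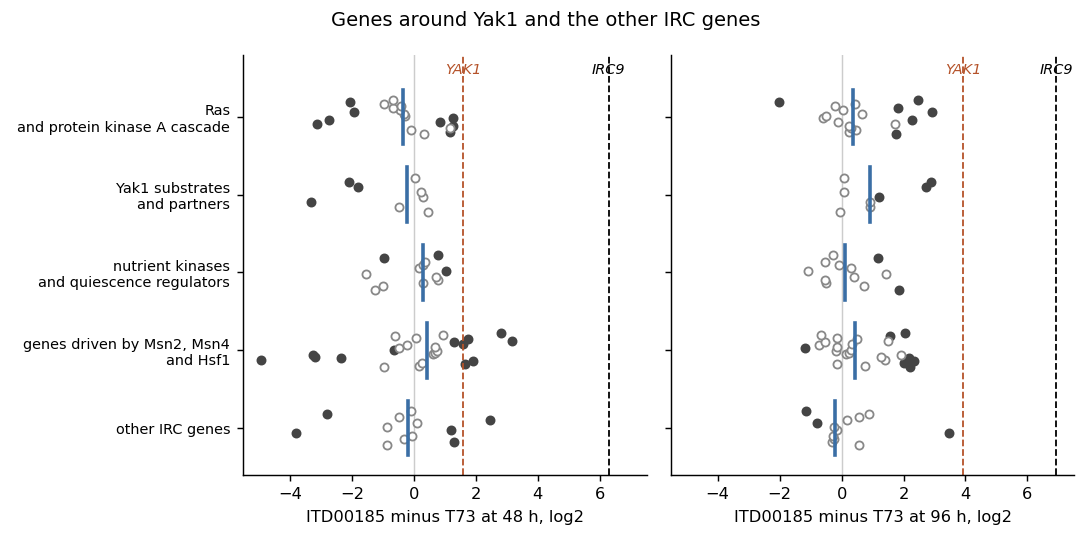
Strain difference (ITD00185 minus T73, log2, horizontal axis) at 48 h and 96 h of each tested gene in 4 lists around Yak1 and of the other IRC genes. Filled points passed an adjusted p of 0.05, blue bars are list medians, and dashed lines mark YAK1 (1.58 and 3.91) and IRC9 (6.29 and 6.93), with every list gene below YAK1 at 96 h.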

How the data were processed

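Total RNA of 12 fermentation samples was amplified, labelled by the indirect cDNA method and hybridized to 2-colour arrays, per the labels' protocols. The values deposited by the authors are log2 ratios, 1 per probe and array. The log base was read from their range, and scanning, background correction and normalization are not given in the sources used here. Array medians ran from -0.03 to 0.42 and SDs over probes from 1.03 to 2.08, so levels and spreads still differed between arrays. The spread went with the groups. At 48 h the SDs were 1.80 to 2.08 in T73 and 1.03 to 1.52 in ITD00185. At 96 h they were 1.14 to 1.31 in T73 and 1.48 to 1.71 in ITD00185. The medians were highest in T73 at 48 h (0.215 to 0.425). Array scale and strain thus cannot be told apart at either time. Of 6246 probes, 5753 matched the S288C gene table (RefSeq, R64) by systematic name and 34 by synonym. The table served for names, gene order and overlap only. Probes of 1 gene were averaged, giving 6214 genes. The 5474 genes with values on at least 2 arrays of every group were fitted with 4 group means in limma 3.58.1 (R 4.3.3, two-sided moderated tests, 8 residual and 3.16 prior degrees of freedom). P-values were adjusted by Benjamini-Hochberg over all genes, with a threshold of 0.05.

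The fit was tested on simulated data. The number of arrays limits the precision, and p-values weigh each difference against the spread between these replicates. That spread was pooled over the 4 groups and moderated over all genes. Members, lists and alternatives were chosen with earlier results of these data known. Named genes were the members, 5 neighbours on each side, up to 6 members per list with the smallest adjusted p, and the 5 genes nearest in profile. A member of 1 list that the rule names is not reported here. Alternatives were centring, scaling, quantile normalization, the replicate number as a block, array weights, extreme values set to missing, complete genes only, a robust variance prior, the arrays of 1 time alone, and each array left out. No reference sequence was used here, so none is shown.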

Additional observations from a re-analysis of the deposited data

Results flagged for a closer look

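Of IRC9, YAK1 and the 9 tested neighbours, 5 had a strain difference at 96 h that differed from that at 48 h by the test of that change itself. It was 2.33 ± 0.67 for YAK1, 3.80 ± 0.90 for SMT1, 5.97 ± 1.10 for ROQ1, -2.11 ± 0.43 for TIM17 and -1.69 ± 0.50 for TIF2 (log2, 96 h minus 48 h, standard error of the limma fit), with adjusted p = 0.0217, 0.0105, 0.00407, 0.00604 and 0.0246 in limma. Among all genes 24.4% changed upward and 13.6% downward by this test. Genes of the other lists are left out of this count. Some of them passed as well, IRC20 among them (7.27 ± 0.67, limma adjusted p = 0.000525). The calls of SMT1, ROQ1 and TIM17 held with each array left out. That of TIF2 was lost without ITD00185 48 h replicate 1 (-1.51) or 3 (-1.46), ITD00185 96 h replicate 2 (-1.64), T73 48 h replicate 2 (-1.51) or T73 96 h replicate 3 (-1.46).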

How the results depend on the processing

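The strain differences of IRC9 and YAK1 kept their sign under all alternatives run, as did the growth of the YAK1 difference (1.83 to 2.87 with single arrays left out). IRC9 moved by more than its replicate SD when arrays were scaled (7.32 at 48 h) or quantile normalized (7.03 at 48 h and 7.25 at 96 h). With single arrays left out it ran from 6.18 to 6.40 at 48 h and from 6.62 to 7.11 at 96 h. YAK1 at 48 h ran from 1.38 to 1.86, and its change in ITD00185 from 1.03 to 2.08. That change was called with array weights (1.59) and with the replicate block (1.53, adjusted p = 0.0331). The change of the IRC9 difference was -0.47 with scaled arrays. The IRC9 change in ITD00185 was -1.50 when scaled and -0.66 when quantile normalized, and ran from -0.0485 to 0.45 with single arrays left out. The cause of these shifts was not tested.

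The values did not settle whether the replicate numbers pair the samples. Deviations of same-numbered samples correlated between -0.17 and 0.49, over 0.1 in 6 of 18 pairs. A sample correlated best with its own number, among the 3 arrays of another group, in 18 of 36 cases. With the block 683 genes changed in ITD00185 against 357 without it, and no other call of IRC9 or YAK1 changed.

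Counts of called genes varied more than 1.5-fold. At 48 h 2164 genes differed, 1231 when scaled, 1270 when quantile normalized, 794 with the 6 arrays of that time, and 1414 to 2832 with single arrays left out. At 96 h 1229 differed, 3178 with array weights, 2466 with the 6 arrays of that time, and 537 to 1799 with single arrays left out. The strain difference changed for 2080 genes, 1305 when scaled, 1343 when quantile normalized, 3275 with array weights and 1264 to 2903 with single arrays left out. In ITD00185 357 genes changed with time, 233 when scaled, 2835 with array weights and 21 to 2104 with single arrays left out. In T73 1772 did, 818 when scaled, 881 when quantile normalized and 925 to 2273 with single arrays left out.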
